A study of Rattus norvegicus with 18 samples.

Results

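Irf8, Tcf4, Clec10a and Flt3, 3 genes of dendritic cell identity and growth and 1 C-type lectin of antigen-presenting cells, were examined in mononuclear cells of the peripheral blood (PBMC), which a density gradient separates from red cells and granulocytes. Members were taken by gene name on a rat array of 41012 probes, which carry 16498 named genes. The name found Tcf4 and Clec10a (written Mgl1, its older symbol). Irf8, whose gene name on the array is a transcript accession, was found by the gene ID in the array's description. No probe named Flt3 was found, so 3 of the 4 genes were measured, each by 1 probe at 1 spot. All 3 probes were well above background, by the scanner software's own test, on 18 of 18 arrays.

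The animals were male Wistar rats, put on their diets at 2 months of age for 4 months and fasted for 14 h before they were killed. The high-protein diet (HPD, 6 arrays) took 45% of its energy from protein, mainly casein, 10% from fat and 45% from carbohydrate. The high-fat diet (HFD, 6 arrays) held 60% fat, 20% protein and 20% carbohydrate, and the low-fat control diet (LFD, 6 arrays) held 10% fat, 20% protein and 70% carbohydrate. HPD and HFD were given in daily amounts matched in energy to what the LFD rats ate, and all 3 diets were purified. Each array set 1 sample, labelled with Cy5, against a pool of the samples labelled with Cy3, and no dye swap is described. 1 array is an HFD replicate by its title and an HPD sample by its source name and description. It was counted as HPD, as replicate 7.

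Dendritic cells take up antigen and present it to T cells, and blood holds few of them. Irf8 is a transcription factor that type 1 conventional dendritic cells need, and that monocytes, B cells and NK cells also use. Tcf4 encodes E2-2, the E protein transcription factor that specifies and maintains plasmacytoid dendritic cells, the main producers of type I interferon, and B cells express it as well. Clec10a is a galactose-type lectin receptor of macrophages, monocyte-derived cells and type 2 conventional dendritic cells, and Flt3 is the receptor tyrosine kinase whose ligand drives dendritic cell development. Dendritic cell markers were measured to different degrees in these cells. Of the genes with a probe, 15 of 15 plasmacytoid markers, 9 of 10 type 1 markers, 6 of 8 type 2 markers and 6 of 9 shared markers were above background often enough to be tested, though many of them serve other blood cells too. The probe for Batf3, a transcription factor of the type 1 subset, was well above background on 18 of 18 arrays. The probes for Zbtb46, a transcription factor of conventional dendritic cells, and Xcr1, the chemokine receptor of the type 1 subset, were so on 0 of 18 arrays, and the probe for Siglech, a plasmacytoid marker in rodents, was on 16. The B cell genes Cd79b and Ms4a1, the monocyte gene Cd14 and the T cell gene Cd3e were well above background on all 18. In a mixed blood sample, fewer cells of a type and less RNA per cell cannot be told apart.

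Between 53.1% and 63.4% of all probes were well above background per array, and 25207 probes that were so on at least 5 arrays entered the tests. The arrays lay on 5 slides. Slide 1 held 2 HFD and 2 LFD arrays, slide 2 held 3 HPD and 1 HFD, and slide 3 held 1 HPD, 2 HFD and 1 LFD. Slide 4 held 2 HPD and 2 LFD, and slide 5 held 1 HFD and 1 LFD. Correlations of log2 ratios between arrays ran between -0.497 and 0.609 over these probes, with 1 pair below -0.3. The highest was between HFD replicates 1 and 6, on slides 1 and 3, and whether these 2 samples are independent was not tested. The labels state the dyes, so the direction of each ratio was kept. A value below is log2 of the Cy5 signal over the Cy3 signal of the same spot, so 0 means the level of the pool and a difference of 1 is a doubling; differences between diets were tested with limma over all 18 arrays, with Benjamini-Hochberg adjustment over the 25207 probes and a threshold of 0.05. The labels name no litters or cages. A p-value weighs a difference in diet means against the spread between these samples, which in the main fit includes any difference between slides.

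Mean levels were lower in HPD than in HFD for all 3 measured genes, with log2 differences of -0.57 for Irf8, -0.25 for Tcf4 and -0.64 for Clec10a, where 47.7% of all probes tested were lower. Of the differences from LFD, that of Clec10a in HPD was the largest in size, at -0.67. None of the 9 differences passed the adjusted threshold. Neither did any other probe: limma called 0 of 25207, or 0%, in HPD against LFD, in HPD against HFD, in HFD against LFD and in the test of any diet. At an unadjusted p under 0.05 the shares were 2.84% for HPD against LFD, 3.02% for HPD against HFD, 2.01% for HFD against LFD and 2.3% for any diet. By that mark 1 of the 3 genes, Clec10a, stood out in HPD against LFD and 2, Irf8 and Clec10a, in HPD against HFD.

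**Figure D1:**
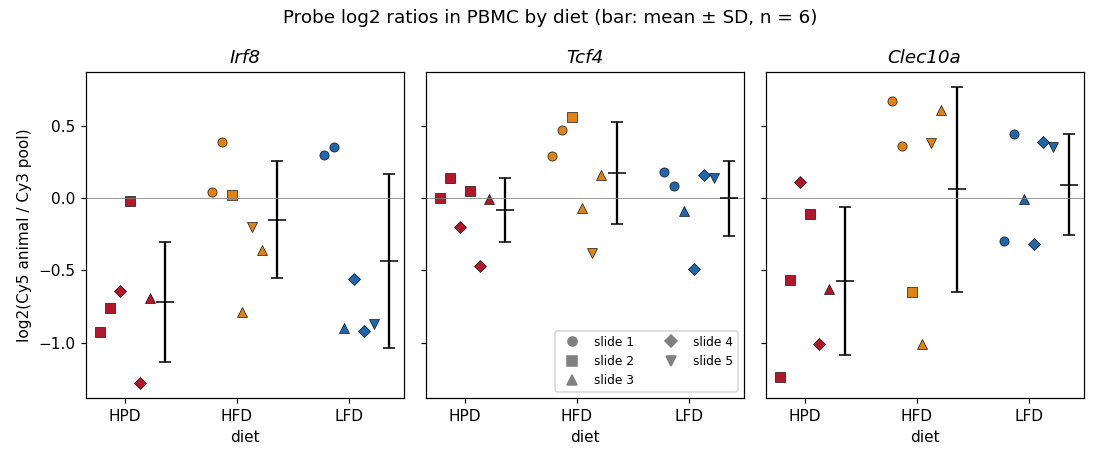
Log2 ratio of the Cy5 signal of each sample over the Cy3 pool (vertical axis) for Irf8, Tcf4 and Clec10a in HPD, HFD and LFD. Points are single arrays with the slide as their shape, and bars are the mean ± SD of 6 arrays. The diets overlap for every gene, and 4 of the 6 HPD arrays of Clec10a lie below the lowest LFD array.

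The Irf8 probe (A_44_P452632) lies at chr19:51116691-51116750 of the rn4 build, as the array's own annotation gives it. Its Cy5 signal ran from 142 to 661 units, and the Cy3 signal of the common pool at the same spot ran from 268 to 503 units. In HPD, Irf8 had a lowest log2 ratio of -1.28, a median of -0.73 and a highest of -0.02. In HFD these values were -0.79, -0.09 and 0.39, and in LFD they were -0.92, -0.72 and 0.35. The LFD arrays were split. Replicates 1 and 2, the LFD arrays of slide 1, stood at 0.30 and 0.35. The other 4 lay between -0.92 and -0.56, a stretch that held 1 HFD array and the HPD arrays at -0.76, -0.69 and -0.64.

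Irf8 averaged -0.72 ± 0.41 in HPD, -0.15 ± 0.40 in HFD and -0.43 ± 0.60 in LFD (SD, n = 6 each). HPD was lower than HFD by a log2 difference of -0.57 ± 0.27 (SE, 95% interval -1.13 to -0.02), which is 0.672 of the HFD level, with 5 of 6 HPD arrays below the HFD mean. Its unadjusted limma p was 0.0445, its adjusted p 0.995, and a two-sided exact permutation test over the 924 splits of the 12 arrays gave p = 0.0411, where the smallest possible is 0.00216. Against LFD, HPD differed by -0.29 ± 0.27 (-0.85 to 0.27, limma adjusted p = 1, exact permutation p = 0.329) and HFD by 0.28 ± 0.27 (-0.27 to 0.84, limma adjusted p = 1, exact permutation p = 0.338). In order of level the diets ran HPD, LFD and HFD, and neither pair of neighbours differed beyond its spread.

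Irf8 also differed between slides. Slides alone took 66.2% of its sum of squares and diets alone 22.1%. The 4 arrays of slide 1, all HFD or LFD, averaged 0.27, and the means of slides 2 to 5 were -0.42, -0.69, -0.85 and -0.53. In a limma fit with both terms the slide test gave Irf8 an adjusted p of 0.111 (unadjusted 0.00744). Over all probes tested it called 0.353%, or 89 probes, and 23.2% had an unadjusted p under 0.05. Within slides, HPD minus HFD was -0.59 on slide 2 and -0.12 on slide 3, HPD minus LFD was 0.21 on slide 3 and -0.22 on slide 4, and HFD minus LFD was -0.11, 0.32 and 0.67 on slides 1, 3 and 5. With slide as a block in the fit, HPD against HFD was -0.38 (limma, unadjusted p = 0.119, adjusted p = 0.999). Leaving out the array with conflicting labels gave -0.53 for HPD against HFD (limma, unadjusted p = 0.0792). Counting it as HFD gave -0.42 (limma, unadjusted p = 0.158). Without slide 1, HPD against LFD turned to 0.09 (limma adjusted p = 0.912).

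**Figure D2:**
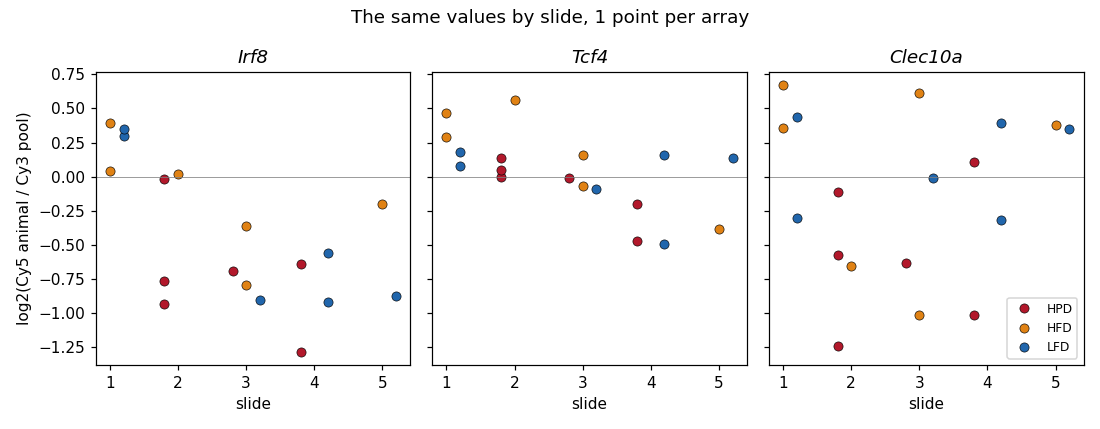
The same log2 ratios by slide (horizontal axis), with 1 point per array and the diet as its colour. The slide 1 points of Irf8 lie between 0.04 and 0.39, and those of slide 4 between -1.28 and -0.56.

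The promoter of Irf8 is shown as a description of the gene, and it does not place the probe. RefSeq's entry in GRCr8, another build than the array's, gives the 250 bases before its start at chr19:65699034-65699283, plus strand. Capitals mark the letters TATAAA.
Irf8: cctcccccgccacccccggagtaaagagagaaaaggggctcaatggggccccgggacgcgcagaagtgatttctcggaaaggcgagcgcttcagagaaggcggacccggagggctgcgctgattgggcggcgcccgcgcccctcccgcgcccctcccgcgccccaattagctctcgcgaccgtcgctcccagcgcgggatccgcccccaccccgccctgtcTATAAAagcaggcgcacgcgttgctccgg
TATAAA was found at 29 bases before the start. Over all 33469 promoters of this length, 12.9% held TATAAA on either strand. The E-box CANNTG, the letters that E proteins such as Tcf4 bind, was held by 65.5% and was not among the letters of this window. The Tcf4 window held neither motif. A match of letters is a description and shows no binding.

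The Tcf4 probe (A_42_P524370, rn4 chr18:66359926-66359984) was the brightest of the 3, with Cy5 signals between 1130 and 3750 units, and it varied least. Its SD over the 18 arrays was 0.29, against 0.36 for the median probe. In HPD it had a lowest log2 ratio of -0.47, a median of 0.00 and a highest of 0.14. The values were -0.38, 0.22 and 0.56 in HFD and -0.49, 0.11 and 0.18 in LFD. The 3 highest HFD arrays stood above every array of the other diets, and the lowest HFD array was below all but 2 of the others.

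Tcf4 averaged -0.08 ± 0.22 in HPD, 0.17 ± 0.35 in HFD and 0.00 ± 0.26 in LFD (SD, n = 6 each). All 6 HPD arrays were below the HFD mean, with a difference of -0.25 ± 0.16 (SE, 95% interval -0.60 to 0.09, limma adjusted p = 0.995, exact permutation p = 0.169). HPD against LFD was -0.08 ± 0.16 (-0.42 to 0.27, limma adjusted p = 1, exact permutation p = 0.556), and HFD against LFD was 0.17 ± 0.16 (-0.17 to 0.52, limma adjusted p = 1, exact permutation p = 0.361). Within slides HPD minus HFD was -0.50 on slide 2 and -0.05 on slide 3.

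The Clec10a probe (A_42_P520349, rn4 chr10:57002796-57002855) was the dimmest, with Cy5 signals between 50.9 and 300 units, and the most variable, with an SD of 0.60 over the 18 arrays, which is at percentile 82 of all probes tested. At the same spot the pool gave between 65.3 and 221 units. In HPD it had a lowest log2 ratio of -1.24, a median of -0.60 and a highest of 0.11. In HFD the values were -1.01, 0.37 and 0.67, and in LFD -0.32, 0.17 and 0.44. The HFD arrays were 4 between 0.36 and 0.67 and 2 more at -0.65 and -1.01, while the LFD arrays stayed within a range of 0.77.

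Clec10a averaged -0.58 ± 0.51 in HPD, 0.06 ± 0.71 in HFD and 0.09 ± 0.35 in LFD (SD, n = 6 each). HPD against LFD was -0.67 ± 0.30 (SE, 95% interval -1.29 to -0.04), or 0.63 of the LFD level, with 5 of 6 HPD arrays below the LFD mean. Its limma p was 0.0377 unadjusted and 1 adjusted, and the exact permutation p was 0.0281. HPD against HFD was -0.64 ± 0.30 (-1.26 to -0.01, limma p = 0.0467 unadjusted and 0.995 adjusted, exact permutation p = 0.102), and HFD against LFD was -0.03 ± 0.30 (-0.66 to 0.59, limma adjusted p = 1, exact permutation p = 0.887). HFD and LFD, neighbours at the top of the order, did not differ beyond their spread.

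The Clec10a difference varied in size between slides and fits. Within slides HPD minus LFD was -0.62 on slide 3 and -0.49 on slide 4, and HPD minus HFD was 0.01 on slide 2 and -0.43 on slide 3. With slide as a block, HPD against LFD was -0.31 (limma, unadjusted p = 0.409, adjusted p = 0.999). The array with conflicting labels held the lowest Clec10a value of all, and without it HPD against LFD was -0.54 (limma, unadjusted p = 0.0952, adjusted p = 1). HPD against HFD was -0.37 with slide as a block (limma, unadjusted p = 0.334, adjusted p = 0.999), -0.50 without that array and -0.32 with it counted as HFD (limma, unadjusted p = 0.347, adjusted p = 1). The limma test of slide gave Clec10a an adjusted p of 0.7.

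**Figure D3:**
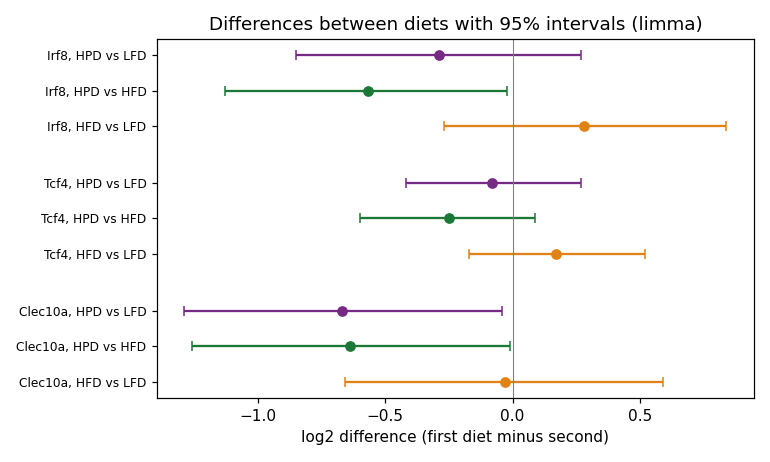
Log2 differences between diets (horizontal axis, first diet minus second) for each gene, with 95% intervals from limma. The intervals of Irf8 in HPD against HFD and of Clec10a in both HPD comparisons end at -0.02, -0.04 and -0.01, and the other 6 cross 0.

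For Flt3, 2 probes described only as fragments of an FMS-related tyrosine kinase lie on chromosome 12 of rn4. Neither the array's annotation nor the RefSeq gene table names them Flt3, and they were not counted as Flt3. The probe at chr12:8245384-8249515 was well above background on 0 of 18 arrays, and the one at chr12:8255669-8255728 on 7, which were 1 HPD, 4 HFD and 2 LFD arrays. The pool was well above background there on 0 arrays, so no ratio is given.

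Across the 18 arrays r was positive for all 3 pairs of genes, and joint variation was not established for any pair. Pearson's r was 0.522 between Irf8 and Tcf4 (rho 0.488, permutation p = 0.0272, adjusted over 3 pairs 0.0816), 0.457 between Irf8 and Clec10a (rho 0.465, permutation p = 0.0573, adjusted 0.086) and 0.243 between Tcf4 and Clec10a (rho 0.331, permutation p = 0.331). None passed the adjusted threshold. Over single named genes the 95th percentile of r was 0.72 with Irf8, 0.49 with Tcf4 and 0.446 with Clec10a. Centred within slides, r of Irf8 with Tcf4 was 0.131, and without the 2 arrays farthest from the Tcf4 median it was 0.436.

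Each gene was then set against the mean log2 ratio of marker lists for 10 kinds of blood cell or function. The dendritic cell lists were not among these 10, so relations of the genes with them were not tested. There were 30 relations in all. Of these, 2 passed the adjusted threshold. Clec10a followed the monocyte list, 18 genes such as Cd14, the co-receptor for lipopolysaccharide, and Csf1r, the receptor for macrophage colony-stimulating factor (r = 0.801, rho = 0.82, permutation p = 3e-05, adjusted 0.00045). Irf8 followed the list of NK and cytotoxic cells, 12 genes such as Prf1, which encodes perforin (r = 0.867, rho = 0.868, permutation p = 2e-05, adjusted 0.00045). High values of r were more common with Irf8: over single named genes the 95th percentile of r was 0.72 with Irf8 and 0.446 with Clec10a. With B cells, which use both regulators, r was 0.266 for Irf8 and 0.299 for Tcf4. The highest r of Tcf4 was 0.511, with the list of blood progenitors (permutation p = 0.0307, adjusted 0.2), a list with 3 measured genes.

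Slide bore differently on these relations. For Clec10a with the monocyte list, r was 0.87 on values centred within slides (permutation, adjusted p = 0.0045), 0.751 without slide 1, 0.756 without the 2 arrays farthest from the median and 0.766 on values centred within diets. For Irf8 with the NK list, r was 0.695 within slides, which no longer passed (permutation p = 0.00982, adjusted 0.147), 0.78 without slide 1, 0.846 without the 2 farthest arrays and 0.853 within diets. A list mean and a single gene share the array they were measured on.

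**Figure D4:**
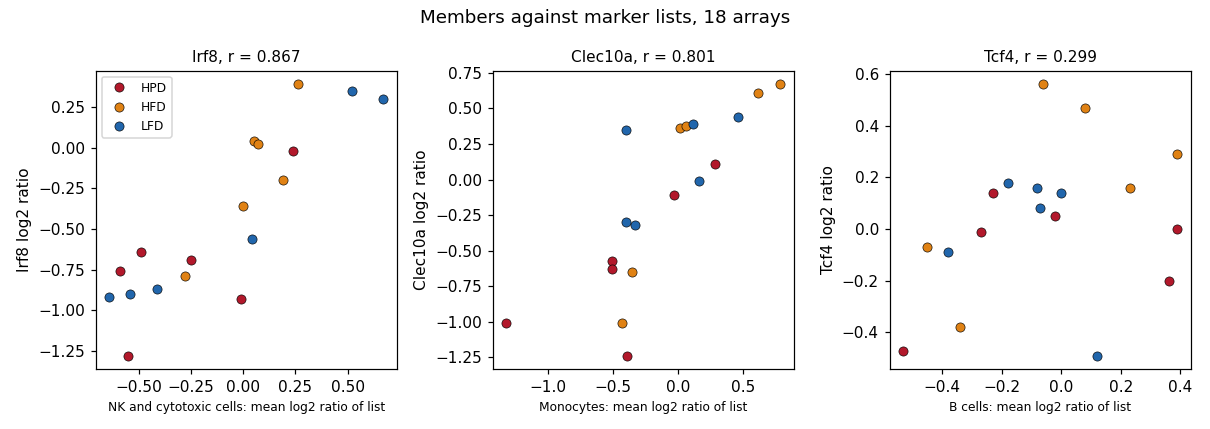
Log2 ratio of Irf8, Clec10a and Tcf4 (vertical axes) against the mean log2 ratio of the NK and cytotoxic, monocyte and B cell lists (horizontal axes), 1 point per array, coloured by diet. Pearson's r is 0.867, 0.801 and 0.299.

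**Figure D5:**
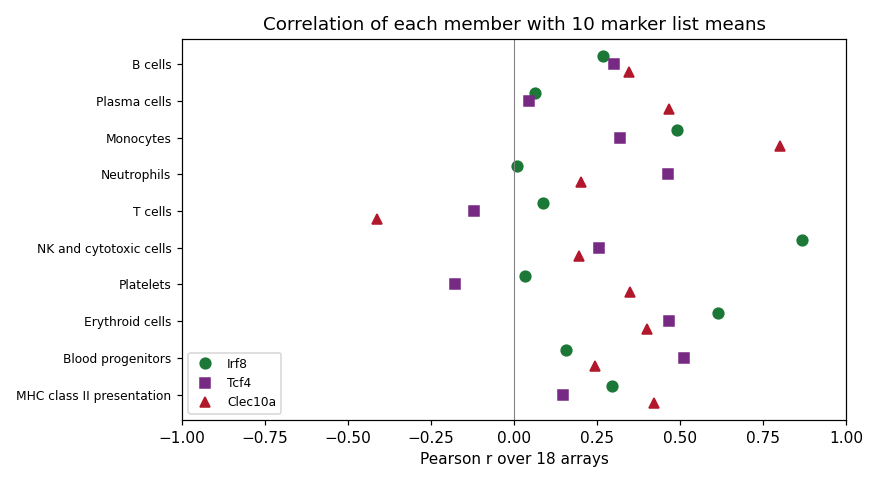
Pearson's r over 18 arrays (horizontal axis) of each gene with the 10 marker list means (rows). Irf8 reaches 0.867 with NK and cytotoxic cells and Clec10a 0.801 with monocytes, and the other 28 values lie between -0.413 and 0.613.

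The monocyte list, like Clec10a, had its lowest mean in HPD, though no gene of it passed the adjusted test. Its mean was -0.41 ± 0.55 in HPD (range -1.32 to 0.29), 0.12 ± 0.50 in HFD (-0.43 to 0.79) and -0.06 ± 0.36 in LFD (-0.40 to 0.46; SD, n = 6 each). Of its 18 measured genes, 17 had a lower mean in HPD than in LFD (median difference -0.20) and 18 a lower mean in HPD than in HFD (median -0.39). In HFD against LFD, where Clec10a was at -0.03, 16 of the 18 had a higher mean (median 0.16). Over all 11150 named genes 49.9% were lower in the first comparison and 47.8% in the second, with medians of 0.00 and 0.01. Msr1 and Cd163, macrophage scavenger receptors, were not above background often enough to be measured. The list's part in the Clec10a difference was not tested.

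The NK list averaged -0.27 ± 0.33 in HPD (range -0.59 to 0.24), 0.05 ± 0.19 in HFD (-0.28 to 0.26) and -0.06 ± 0.56 in LFD (-0.64 to 0.67; SD, n = 6 each). Of its 12 measured genes, 11 had a lower mean in HPD than in HFD (median difference -0.28) and 11 in HPD than in LFD (median -0.20), and none passed the adjusted test. Its part in the Irf8 differences was not tested. B cell genes were near the pool in every diet, with list means of -0.05 ± 0.37 in HPD, -0.03 ± 0.33 in HFD and -0.10 ± 0.17 in LFD (SD, n = 6 each).

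Over 11057 named genes, the 5 whose pattern was most like that of Clec10a across the 18 arrays were Fcnb, a ficolin of innate immunity (r = 0.903), Fn1, fibronectin (r = 0.882), Cfd, complement factor D (r = 0.856), Vcan, the proteoglycan versican, which is in the monocyte list (r = 0.849), and Rnase2, a secreted ribonuclease (r = 0.791). The 95th percentile of r with Clec10a over all genes was 0.446. On values centred within slides r was 0.922 for Fcnb and 0.897 for Fn1. The log2 differences of HPD against LFD were -1.04 for Fcnb, -0.99 for Fn1, -0.89 for Cfd, -1.57 for Vcan and -1.51 for Rnase2, none past the adjusted threshold. These genes were picked by their r with Clec10a over the same arrays. Their differences therefore tend to go the way of Clec10a and are no separate result.

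The genes most like Irf8 were Stard3nl, a late endosomal membrane protein (r = 0.93), Cdc42, a small GTPase of the cytoskeleton (r = 0.922), Ptprs, a receptor tyrosine phosphatase (r = 0.921), Vim, vimentin (r = 0.919), and Rpia, an enzyme of the pentose phosphate pathway (r = 0.919). High values of r with Irf8 were common: its 95th percentile over all genes was 0.72. Within slides r was 0.817 for Stard3nl and 0.865 for Vim. Their log2 differences of HPD against HFD were -0.22 for Stard3nl, -0.23 for Cdc42, -0.63 for Ptprs, -0.39 for Vim and -0.28 for Rpia. As with Clec10a, picking genes by r over the same arrays tends to give differences that go the way of Irf8.

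For Tcf4 the closest genes were Camk1d, a calcium-dependent kinase (r = 0.757), Srrm2, a splicing protein (r = 0.756), Fxr1, an RNA-binding protein (r = 0.747), Tm9sf4, a transmembrane protein (r = 0.745), and Son, a splicing cofactor (r = 0.734), where the 95th percentile was 0.49. Within slides r lay between 0.446 for Tm9sf4 and 0.659 for Fxr1.

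Genes that work with the 4 regulators and receptors showed 0 adjusted calls in any comparison. The shares of all named genes that were lower, to be read beside the counts, were 49.9% for HPD against LFD, 47.8% for HPD against HFD and 52.2% for HFD against LFD. Of 14 partners of Irf8, 8 were lower in HPD than in LFD (median -0.03) and 10 lower in HPD than in HFD (median -0.07). Among them Batf3, with which Irf8 sustains the type 1 dendritic cell, was -0.33 ± 0.21 in HPD against LFD (SE, limma, adjusted p = 1, unadjusted 0.132), and Cebpb, a monocyte factor that is also in the monocyte list, was -0.56 ± 0.26 in HPD against HFD (SE, limma, adjusted p = 0.995, unadjusted 0.0476). The 8 other interferon regulatory factors were divided 4 to 4 in each comparison.

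Of 10 measured E proteins, Id proteins and their cofactors, with which Tcf4 pairs or competes, 8 were lower in HPD than in LFD (median -0.25) and 9 lower in HPD than in HFD (median -0.22). Id2, an inhibitor of E proteins that opposes Tcf4 in dendritic cells, was -0.42 ± 0.23 in HPD against HFD (SE, limma, adjusted p = 0.995, unadjusted 0.083), and the E protein Tcf12 was -0.33 ± 0.19 (SE, limma, adjusted p = 0.995, unadjusted 0.0998). HFD against LFD had 6 higher and 4 lower, with a median of 0.03.

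Of 18 genes for the ligand and signalling of Flt3, 14 were lower in HPD than in LFD (median -0.14) and 15 lower in HPD than in HFD (median -0.18). Grb2, the adaptor that links receptor kinases to Ras, was -0.39 ± 0.15 in HPD against HFD (SE, limma, adjusted p = 0.995, unadjusted 0.0194), and Stat5b, a transcription factor below the receptor, was -0.28 ± 0.17 in HPD against LFD (SE, limma, adjusted p = 1, unadjusted 0.123). HFD against LFD had 10 higher and 8 lower.

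Of 11 measured C-type lectin receptors other than Clec10a, 9 were lower in HPD than in LFD (median -0.12) and 9 lower in HPD than in HFD (median -0.26). Mrc1, the mannose receptor of macrophages, was -1.57 ± 0.53 in HPD against HFD (SE, limma, adjusted p = 0.995, unadjusted 0.00887). Clec4f, the galactose-binding lectin of Kupffer cells in rodents, was -1.22 ± 0.53 in HPD against LFD (SE, limma, adjusted p = 1, unadjusted 0.0342) and -1.36 ± 0.53 in HFD against LFD (SE, limma, adjusted p = 1, unadjusted 0.0195), comparisons that share the LFD arrays.

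Marker lists of dendritic cell subsets had 0 adjusted calls as well. In HPD against HFD, 8 of 15 plasmacytoid genes were lower (median -0.01), among them Zeb2, which acts with Tcf4 in these cells (-0.64 ± 0.30, SE, limma, adjusted p = 0.995, unadjusted 0.0472), while Bcl11a, which acts above Tcf4, was 0.57 ± 0.29 (SE, limma, adjusted p = 0.995, unadjusted 0.0685). In the same comparison 5 of 9 type 1 genes (median -0.01), 4 of 6 type 2 genes (median -0.23) and 3 of 6 shared dendritic cell genes (median -0.01) were lower. In HPD against LFD the medians were 0.05 for plasmacytoid, -0.01 for type 1, -0.08 for type 2 and 0.02 for shared genes.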

How the data were processed

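PBMC RNA of 18 rats was hybridised on 2-colour rat 4x44K arrays. Per the submitters' processing notes, the scanner files were written by Agilent Feature Extraction, version 10.5.1.1. The processed red and green signals are intensities, which the scanner software had background-subtracted and dye-normalized per the file headers. A further table holds the authors' log2 values for 21530 spots, with column medians of 8.4, whose scale and centring are not given in the sources used here. Set against the scanner ratios, differences between its columns had r = 0.886 and a slope of 0.696, so it served as an alternative.

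The log2 ratio of Cy5 over Cy3 was taken, outlier spots (0.39%) were left out and spots of a probe averaged. Of 41012 probes, 25207 were well above background in Cy5 on at least 5 of 18 arrays. Of all probes, 21097 were named through the RefSeq gene table or the files' gene names: 10963 by accession, 2572 by gene ID, 4488 by symbol and 3074 by synonym. A gene was its brightest kept probe. limma 3.58.1 in R 4.3.3 gave 1 mean per diet (lmFit, eBayes, Benjamini-Hochberg, threshold 0.05), tested on simulated data, with exact permutation tests beside it and 100000 draws for correlations. Replicate numbers were not used to pair the samples in the main fit. With 6 arrays a diet, their number sets the precision.

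The 4 genes and all lists were chosen with earlier results of these data known. Named genes were the 4 members, the 5 genes most correlated with each, and up to 2 genes per list and comparison with the smallest p; other genes are named only as examples of a list or of what the array detects, and were chosen after their values were seen. Promoters are RefSeq's (GRCr8), with an entry for 2 of the 3 measured genes. Probe and protein sequences were not used here.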

Additional observations from a re-analysis of the deposited data

How the results depend on the processing

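Each of the 9 differences was recomputed under 14 other settings and with each of the 18 arrays left out, and none passed the adjusted threshold under any. Of the 3 with an unadjusted p under 0.05, Clec10a in HPD against LFD (-0.67) ran between -0.82 and -0.26 over the other settings and between -0.81 and -0.54 with an array left out, under 0.05 in 7 of 14 and 11 of 18. Clec10a in HPD against HFD (-0.64) ran between -0.78 and -0.31 and between -0.85 and -0.50, under 0.05 in 7 of 14 and 7 of 18. Irf8 in HPD against HFD (-0.57) ran between -0.60 and -0.35 and between -0.71 and -0.46, under 0.05 in 7 of 14 and 8 of 18. With HFD replicates 1 and 6 averaged, Clec10a in HPD against HFD was -0.52 (limma, unadjusted p = 0.109). Irf8 in the same comparison was -0.58 (limma, unadjusted p = 0.0584). Signs turned for Clec10a in HFD against LFD (-0.03), which was 0.06 with normexp background correction of all spots, 0.06 with slide as a block, 0.08 with array quality weights and between -0.15 and 0.18 with an array left out. They also turned for Irf8 in HPD against LFD, 0.09 without slide 1 (between -0.43 and -0.13 with an array left out), and for Tcf4 in HPD against LFD, 0.04 with array weights (between -0.17 and 0.00 with an array left out). The cause was not tested.

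Calls in HPD against LFD were 2 with array weights and 0 to 1 with an array left out, the 1 being without LFD replicate 2. The 89 probes called for slide became 834 with normexp on all spots, 888 with normexp on unmarked spots, 2043 in the authors' table, 170 on Cy5 alone, 0 with scaling between arrays, 8 with no filter on dim probes, 262 with the filter on all arrays, 492 without the array of conflicting labels, 260 with it as HFD, 0 with HFD replicates 1 and 6 (r = 0.609) averaged, 0 with array weights, and 0 to 3168 with an array left out. Of the relations with marker lists 2 passed, against 1 within slides and 3 without the 2 arrays farthest from the median, the added one being Irf8 with erythroid cells. Values centred within diets were an alternative chosen after seeing the data. The replicate numbers gave no sign of pairing (16 pairs with the same number, median r 0.0128, against -0.0236 for 92 other pairs). With a replicate block, Clec10a in HPD against LFD was -0.45, Irf8 in HPD against HFD was -0.60, and no diet comparison had a call.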

Other observations

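Red cells are largely removed by a density gradient. The platelet and erythroid lists were measured too. Of the genes with a probe, 12 of 13 platelet genes and 18 of 19 erythroid genes were above background often enough to be tested. Diets overlapped in the means of both lists, and no gene passed the adjusted threshold. Over all named genes, 49.9% were lower in HPD than in LFD, 47.8% in HPD than in HFD and 52.2% in HFD than in LFD. Genes of 1 list share their arrays, so a count is not that many separate results. All 12 measured platelet genes were lower in HPD than in LFD (median log2 difference -0.65) and lower in HFD than in LFD (median -0.24). Of 18 erythroid genes, 17 were lower in HPD than in LFD (median -0.70) and 17 lower in HPD than in HFD (median -0.56). The platelet list mean was -0.58 ± 0.42 in HPD, -0.26 ± 1.03 in HFD and 0.02 ± 0.61 in LFD, and the erythroid list mean was -0.61 ± 0.34 in HPD, -0.09 ± 0.75 in HFD and -0.02 ± 0.71 in LFD (SD, n = 6 each). Over the 18 arrays r with the erythroid list was 0.613 for Irf8 (permutation p = 0.00774, adjusted 0.0774), 0.718 without the 2 arrays farthest from the median (permutation, adjusted p = 0.0194), 0.23 without slide 1 and 0.16 within slides, and 0.40 for Clec10a (permutation p = 0.10, adjusted 0.273).

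T cell genes stayed near the pool: 12 of 20 were higher in HPD than in LFD (median 0.02) and 15 of 20 higher in HPD than in HFD (median 0.10). Over all named genes 49.9% were lower in the first comparison and 47.8% in the second. The medians of HPD against LFD were 0.07 for 5 plasma cell genes, 0.07 for 6 neutrophil genes, 0.16 for 3 progenitor genes and -0.01 for 9 genes of MHC class II presentation.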
